A study of Homo sapiens and Mus musculus with 24 samples.

Results

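The beta-globin locus was described here through every peak that overlapped chr7:103790000-103900000 (mm10), a window of 110 kb that holds the beta-globin genes Hbb-bt, Hbb-bs, Hbb-bh1 and Hbb-y and the locus control region upstream of them. It held 276 of the 564622 peaks in 12 peak lists of mouse fetal liver at embryonic day 14.5. The lists come from chromatin immunoprecipitates of BRG1 from livers of hemogen knockout (KO) embryos and of BRG1, of hemogen and of acetylated histone H3 lysine 27 (H3K27ac) from wild-type (WT) livers, with 2 libraries and 1 group list for each. The labels of the 2 libraries name their group list, which was taken to cover the same 2 libraries. A site can thus be counted in 3 lists. Hemogen was pulled down by an HA tag, whose origin the labels leave out, in livers they call WT. No HA control from liver without the tag was analysed here. The cells that carry the deletion and the number of animals per library are not stated in the labels, so spreads are between libraries and may be technical. These are bulk samples: fewer cells with BRG1 at a site and less BRG1 per cell cannot be told apart.

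Beta-globin genes encode the non-alpha chains of hemoglobin. Hbb-y and Hbb-bh1 serve embryonic red cells, and Hbb-bs and Hbb-bt, near-identical copies, serve the definitive red cells that the fetal liver makes. The locus control region is a string of enhancer sites bound by erythroid factors, which contacts the active gene. Along chromosome 7 the order with rising coordinate is Hbb-bt, Hbb-bs, Hbb-bh1, Hbb-y and then the control region. BRG1 is the ATPase of BAF chromatin remodelling complexes, hemogen is found in the nuclei of blood-forming cells, and H3K27ac marks active promoters and enhancers. No annotation or genome of the mouse was used here, so elements are named by position, no peak is assigned to one gene or one enhancer site, and no sequence is shown.

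Depth was unequal between the genotypes. Relative to WT BRG1 library 1, the recovered depth of the immunoprecipitate was 0.406 and 0.342 in KO BRG1 libraries 1 and 2, and 1.04 in WT BRG1 library 2. After the caller's scaling, the recovered depth at which peaks were called was 0.259 and 0.262 in the KO libraries. It was 0.861 in WT BRG1 library 2, so the gap between the genotypes was wider at calling. The KO lists held 3205 and 5592 peaks on the autosomes and chromosome X, against 26329 and 21165 in WT. The knockout itself was not checked here, since no list measures hemogen in KO liver, nor can peak lists check the tissue label.

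The window was dense with hemogen and BRG1 in WT liver and had few BRG1 peaks in the KO, whose lists were also shorter. KO BRG1 libraries 1 and 2 had 1 peak each in the window, whereas WT BRG1 libraries 1 and 2 had 23 and 18. As shares of the whole lists, these were 0.0312% and 0.0179% in the KO libraries and 0.0874% and 0.0850% in the WT libraries. The gap in share was thus smaller than the gap in number. Both KO libraries thus lay below both WT libraries. The mean number was 1 ± 0 in KO liver and 20.5 ± 3.54 in WT liver (SD, n = 2 libraries each), a difference of -19.5. The two-sided exact permutation test gave p = 0.33, the smallest p that 2 against 2 libraries allow. Peaks covered 180 and 225 bp of the window in the KO libraries and 8955 and 5862 bp in the WT libraries. The group lists had 3 KO and 39 WT peaks. With every BRG1 library list trimmed to its 3205 strongest peaks, 1 and 0 KO peaks stood in the window against 3 and 3 WT peaks. Trimming equalizes list length and leaves the depths unequal.

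Hemogen covered more of the window than any other mark. Its 32 and 33 peaks in libraries 1 and 2 covered 26.8% and 22.6% of the window, while H3K27ac covered 8.31% and 4.53% with 30 and 18 peaks. Hemogen peaks of the window were wide and strong for their lists: the median width was 577 and 467 bp, against 391 and 392 bp over all hemogen peaks. The fold enrichment at a peak, its height over local background, and its −log10 p are the authors' own values, used here only to describe and rank peaks within a list. Fold had a median of 5.19 and 4.74 in the window and of 4.06 and 4.12 over the lists. The widest hemogen peak spanned 4453 bp in library 1 and 3292 bp in library 2, wider than 99.8% and 99.3% of peaks in those lists. WT BRG1 peaks were near the middle of their lists, with a median fold of 4.08 and 4.44 in the window against 4.06 and 4.22 over all BRG1 peaks. Of the hemogen peaks, 7 and 8 were above the 95th percentile of −log10 p in their list; of the WT BRG1 peaks, 1 and 0 were.

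Set against 10647 other tiles of 110 kb along the genome that held a peak of any library, the window had more hemogen peaks than 99.8% and 99.9% of them in libraries 1 and 2, and more WT BRG1 peaks than 99.7% and 99.5%. It had more H3K27ac peaks than 95% and 93.6%. KO BRG1 library 1 had at least 1 peak in 2092 of these tiles and KO library 2 in 3121. The window had more KO BRG1 peaks than 80.4% and 70.7% of the tiles. Rank in peak number was higher for hemogen and WT BRG1 than for acetylation, and lowest for KO BRG1.

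Peaks that overlap were merged into elements. The window had 54: 29 built from hemogen or BRG1 peaks, and 25 with H3K27ac peaks alone. Of the 29, 14 held hemogen and WT BRG1, 12 held hemogen without WT BRG1, 2 held WT BRG1 without hemogen, and 1 held BRG1 peaks of the KO with neither. Those of the 29 that lay less than 2 kb apart were joined into 8 clusters, a distance chosen after the data were seen. The 25 elements with H3K27ac peaks alone were not put into clusters. The clusters are numbered with rising coordinate.

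**Figure D1:**
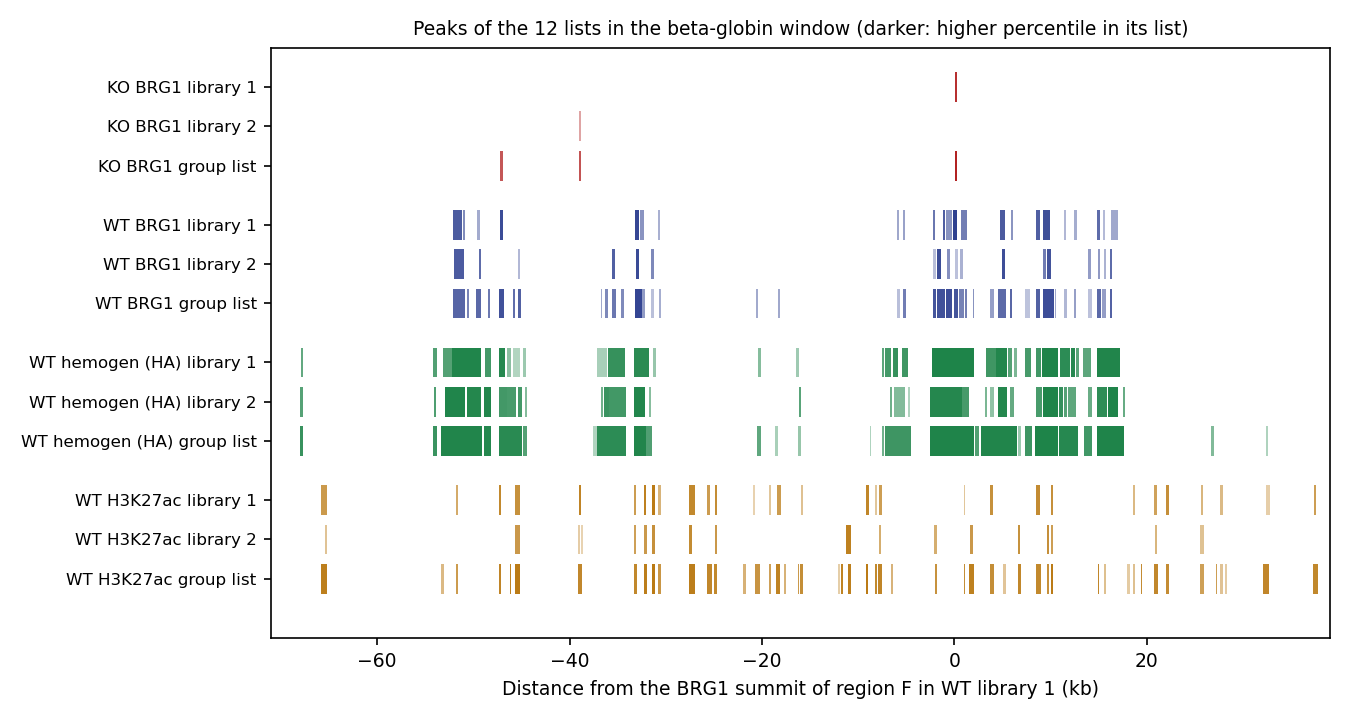
Peaks of each list along the window, in kb from the BRG1 summit of region F in WT library 1; each bar is 1 peak, and darker bars have a higher percentile of −log10 p within their own list. KO BRG1 libraries have 1 peak each, WT BRG1 libraries 23 and 18, and hemogen peaks form broad blocks.

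The longest cluster, cluster 6, lay at chr7:103858471-103878696, at the high-coordinate side of the window, where the control region is found. It had 9 elements and 9 of the 12 BRG1 regions found in both WT libraries. BRG1 peaks covered 0.890% and 0% of its 20226 bp in the KO libraries, and 29.1% and 16.9% in the WT libraries. Hemogen covered 74.3% and 60.7% of it and H3K27ac 6.0% and 6.21%. The cluster was mostly covered by hemogen, in part by WT BRG1, and little by acetylation peaks. Hemogen and BRG1 peaks set the bounds of every cluster, and H3K27ac peaks did not. Cover by hemogen is therefore high in part by construction, and the order of the marks within a cluster is no finding.

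Clusters 2 and 3 lay at the low-coordinate side, at chr7:103806801-103816543 and chr7:103821963-103830471. In cluster 2, BRG1 peaks covered 0% in both KO libraries and 17.3% and 15.1% in the WT libraries, and hemogen covered 72.2% and 69.4%. In cluster 3, BRG1 covered 0% and 2.64% in the KO libraries and 11.8% and 11.5% in the WT libraries, and hemogen covered 56.2% and 43.7%. Cluster 3 had the most H3K27ac regions found in both libraries, 4, against 1 in cluster 2.

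Clusters 4 and 5, between these and cluster 6, had few BRG1 peaks. Cluster 4, at chr7:103840370-103845050, had no BRG1 peak in any KO or WT library, and its 2 BRG1 peaks stood in the WT group list alone. Hemogen covered 11.1% and 4.38% of it, and H3K27ac 14.1% and 0%. Cluster 5, at chr7:103852170-103856435, had no BRG1 peak in the KO libraries, 2 in WT library 1 and 0 in WT library 2. Hemogen covered 45.2% and 37.3% of cluster 5, and H3K27ac 11.9% and 4.34%. Clusters 1, 7 and 8 were single elements of 336, 263 and 207 bp with hemogen and no BRG1 peak, and those of clusters 7 and 8 rested on the hemogen group list.

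**Figure D2:**
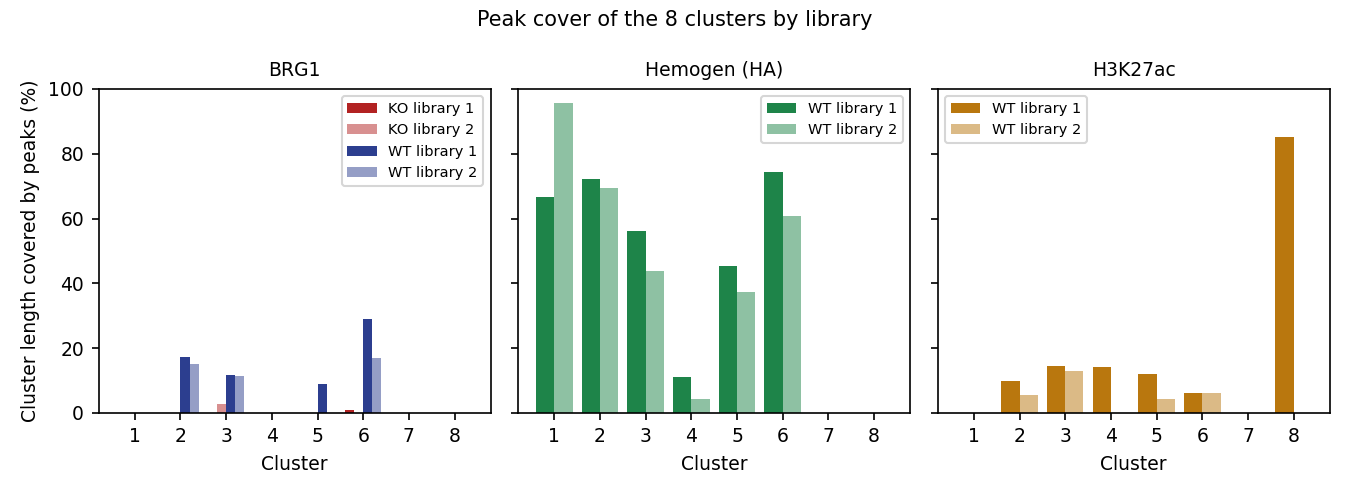
Percent of the length of each cluster covered by peaks, for BRG1 (KO libraries left of WT libraries), hemogen and H3K27ac; each bar is 1 library. In cluster 6, WT BRG1 covers 29.1% and 16.9% and hemogen 74.3% and 60.7%, and the single acetylation bar of cluster 8 is 1 peak over an element of 207 bp.

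Peaks of both libraries, merged, are called regions. The window had 12 WT BRG1 regions, given the letters A to L with rising coordinate, 21 hemogen regions, 12 H3K27ac regions and 0 KO BRG1 regions. All 12 WT BRG1 regions overlapped a hemogen region, where 96.6% of the 13213 WT BRG1 regions of the genome did, so this share was near the background. Of the 23 and 18 WT BRG1 peaks in the single libraries, 22 and 18 overlapped a hemogen region, with no genome-wide share for single-library peaks beside them here. Overlap between replicates was highest for hemogen: 26 of 32 peaks of library 1 overlapped library 2, and 31 of 33 the reverse, where the shares over the whole lists were 58.1% and 78%. For WT BRG1 13 of 23 and 13 of 18 did, where the lists had 58.4% and 81%. For H3K27ac 12 of 30 and 13 of 18 did, where the lists had 40.2% and 63.5%. The 1 KO BRG1 peak of each library overlapped none of the other library, where 52.3% of library 1 and 28.9% of library 2 peaks did.

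The 12 BRG1 regions differed in height. Summit heights, in fragments, were worked out from the deposited fold and p of each peak. They ran from 15 to 46 fragments in WT library 1, with a median of 27.5, and from 16 to 38 in library 2, with a median of 29; the medians over all WT BRG1 regions were 29 and 29. The window was thus not high in BRG1 height per region, and stood out by the number of its regions. The tallest was region F, chr7:103860841-103861331 in cluster 6, with 46 and 38 fragments. Region H, chr7:103865734-103866238, had 38 and 38, and region C, chr7:103827816-103828242 in cluster 3, had 37 and 33. The lowest, region K at chr7:103876430-103876762, had 15 and 16.

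The other regions lay between these in height. In cluster 2, region A had 29 fragments in both WT libraries, while its neighbour B, chr7:103811424-103811765, had 16 and 29. In cluster 6, regions D, E and G, at chr7:103858766-103859044, chr7:103860137-103860725 and chr7:103861534-103862301, flank region F under the same wide hemogen region. D had 27 and 23 fragments, E 23 and 25, and G 20 and 22, so both WT libraries put region F above its 3 neighbours. Region I had 32 fragments in both libraries. At the far end of cluster 6, regions J, chr7:103875821-103876144, and L, chr7:103877124-103878034, had 22 and 18, and 28 and 30. Heights in the WT libraries were within 5 fragments of each other at 10 of the 12 regions, with B and F as the exceptions.

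Region F ranked differently in the WT libraries. Its fold was 7.83 in library 1, the strongest of 23 peaks in the window by −log10 p, and 2.21 in library 2, the weakest of 18. The recovered local background at the summit, on the same scale of fragments as the heights, was 4.88 in library 1 and 16.5 in library 2. Region F was thus the tallest or tied for the tallest in both libraries, and the weakest by −log10 p in library 2. Region C ranked 2 of 23 and 1 of 18 by −log10 p, with folds of 6.72 and 6.26. Regions I, chr7:103870171-103871002, and A, chr7:103808931-103810166, had folds of 5.84 and 5.60, and of 5.19 and 5.31. These 3 ranked between 1 and 6 in both libraries, unlike region F.

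Some strong BRG1 peaks had no partner in the other library. The peak at chr7:103813814-103814109 in cluster 2 had a fold of 6.86 and 30 fragments in WT library 1, rank 3 of 23 in the window, and WT library 2 had no peak there. The peak at chr7:103859219-103859576 in cluster 6 had a fold of 7.07 and 30 fragments in WT library 2, rank 2 of 18, with none in library 1. The WT group list had a peak over each.

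Of the 12 WT BRG1 regions, 1 was called in a KO list, region F, and 11 were in none. Genome-wide, 55.3% of the 13213 WT BRG1 regions had a peak in any KO list. By list, 1, 0 and 1 of the 12 were called in KO library 1, KO library 2 and the KO group list, where the genome-wide shares were 18.4%, 28.9% and 53.6%. The gap to the genome-wide share was widest for the group list. Absence of a call does not show absence of BRG1.

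Weaker WT regions were called less often in the KO throughout the genome, so the window was also read against regions of like strength. Strength averages a region's −log10 p percentiles in the WT libraries. It had a median of 46.1 in the window and 63.0 over all regions, so the window regions were weaker. With the genome-wide called share of each strength decile weighted by the window's 12 regions, the share was 49.4%, and it was 46.2% with deciles of summit height, a measure added after the data were seen. By −log10 p percentile the 4 strongest regions of the window, C, I, H and A, stood in deciles 9, 9, 8 and 8, in which 83% and 69.8% of all regions were called in the KO, and none of the 4 was. Region F was in decile 4, in which 43.8% were called. By summit height the order differs: region F, the one that was called, and region H, which was not, stood in decile 9, in which 85.9% of all regions were called. These shares describe regions of the genome that share libraries, and no test was made over regions.

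**Figure D3:**
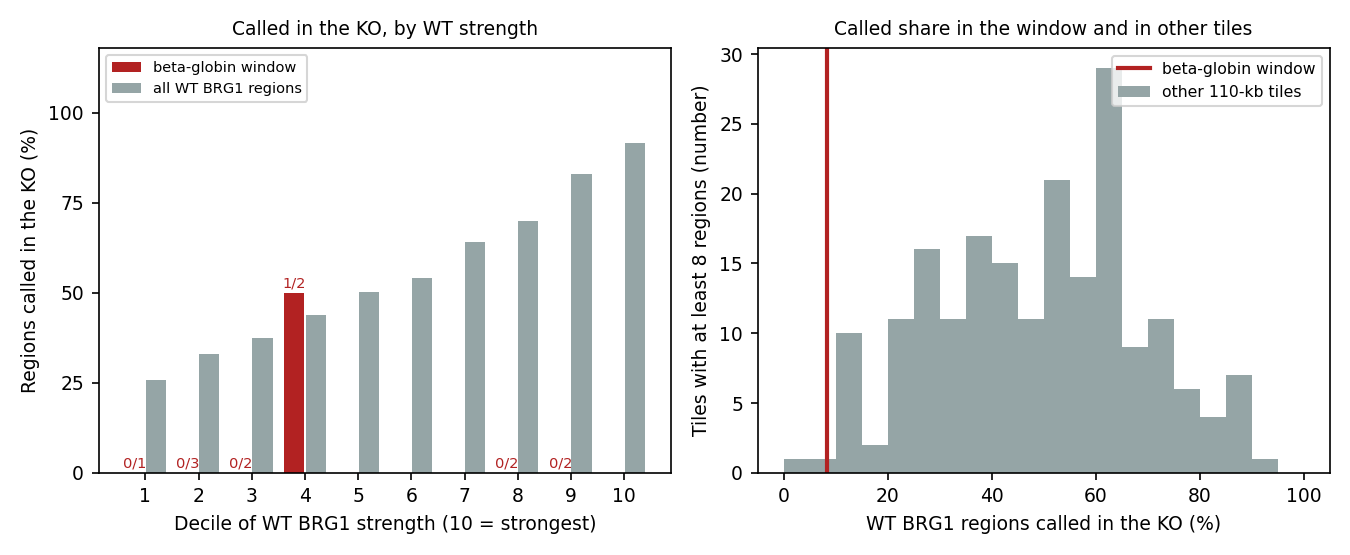
Left, percent of WT BRG1 regions with a KO call by decile of WT strength, for the window (red, with called over total) and all regions (grey). Right, the same percent in 197 other tiles of 110 kb with at least 8 regions, with a line for the window at 8.33%; the median tile is at 50%.

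Other dense tiles were called more often. Among 197 other tiles of 110 kb with at least 8 WT BRG1 regions, a minimum chosen after the data were seen, the median called share was 50%, with quartiles of 33.3% and 62.5%, against 8.33% in the window. As low or lower were 2 tiles, chr12:3190001-3300000 with 0 of 10 regions called and chr13:75680001-75790000 with 1 of 13.

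The KO libraries were also shallower, and heights are scaled here by the recovered depth of the immunoprecipitate. Scaled to the depth of the KO library of the same number, the WT summit heights of the 12 regions would run from 6.09 to 18.7 fragments, with a median of 11.2, for KO library 1, and from 5.25 to 12.5, with a median of 9.52, for KO library 2. The lowest summit in any resolved peak of those KO lists was 12 and 10 fragments, and 4 of the 12 scaled heights reached it in each. The same depth applied to the regions of the genome behind the shares above; its part in the result was not tested.

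The single KO call at a WT region ranked high by −log10 p and was near the middle of its list in height. At region F, KO library 1 had a peak at chr7:103861046-103861225 with a fold of 6.14 and 31 fragments. The median summit of that list was 30 fragments, and the peak stood in its 91.2nd percentile of −log10 p. The WT height scaled to that library would be 18.7 fragments. KO library 2 had no peak there, where the scaled WT height would be 12.5. The KO group list had a peak of fold 8.56 and 40 fragments at chr7:103861023-103861238, in the 99.7th percentile of −log10 p in that list. So 1 of the 2 KO libraries carries this call.

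**Figure D4:**
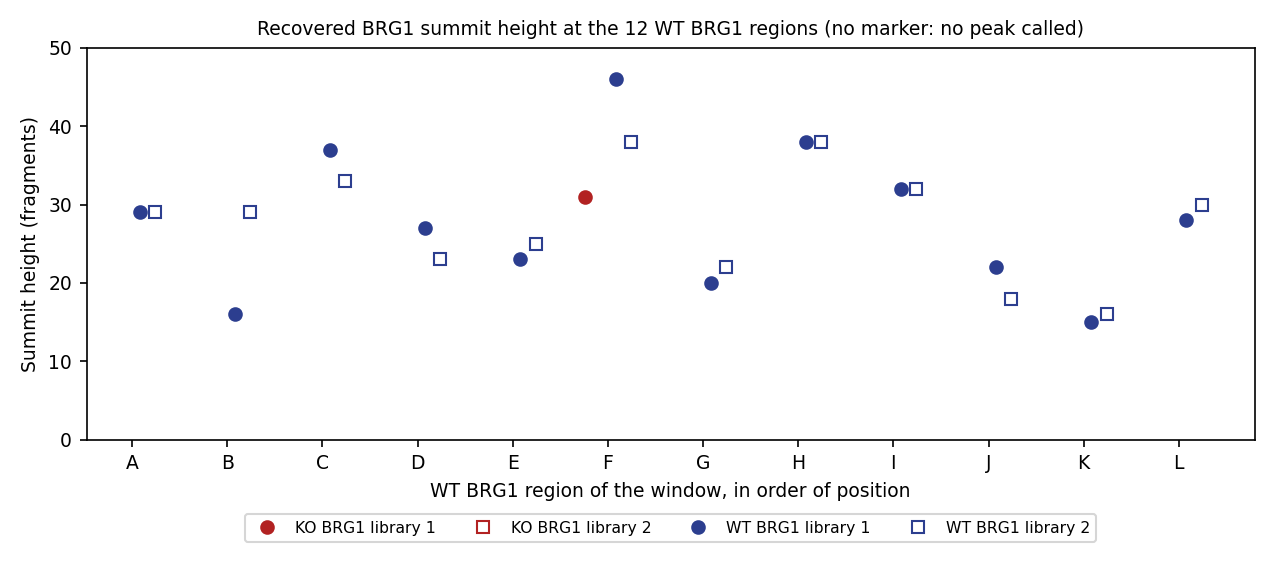
Summit height in fragments at WT BRG1 regions A to L, with KO libraries left of WT libraries at each region; each marker is 1 library, and no marker means that no peak was called. KO library 1 has 31 fragments at region F, where the WT libraries have 46 and 38, and KO library 2 has no marker.

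BRG1 peaks of the KO stood at 2 further places. The first, chr7:103813791-103814030 in the KO group list, had a fold of 5.06 and 23 fragments, with no peak in either KO library. It overlapped the strong WT library 1 peak of cluster 2 described above, hemogen peaks of both libraries and an H3K27ac peak of library 1. The other, chr7:103821963-103822187 in KO library 2, had a fold of 4.55 and 12 fragments, in the 15.9th percentile of its list, and the KO group list had a peak of fold 5.67 there. It overlapped no WT BRG1 and no hemogen peak of any list, and it lay within the H3K27ac region at chr7:103821875-103822416. Over the KO lists, 4.15% of library 2 peaks and 10.9% of group list peaks overlapped no WT BRG1 peak.

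H3K27ac regions found in both libraries overlapped few of the hemogen and BRG1 regions, and the longer H3K27ac group list overlapped most of them. Of the 12 WT BRG1 regions 1, region C, overlapped an H3K27ac region, where 63.9% of all WT BRG1 regions did. Against the longer H3K27ac group list it was 8 of 12, where the genome-wide share was 89.9%. Of the 21 hemogen regions 3 overlapped an H3K27ac region, where 39.8% of all hemogen regions did, and 13 overlapped the H3K27ac group list, where 68.5% did. These shares were below the genome-wide ones in these lists, and their size depended on which H3K27ac list was used.

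Conversely, of the 12 H3K27ac regions 4 overlapped a hemogen region and 1 a BRG1 region, where the shares over all 25305 were 49% and 37.2%. Against peaks of any list, 5 of 12 overlapped hemogen and 5 of 12 WT BRG1, where the shares were 61.9% and 54.2%. The strongest H3K27ac region of library 1, chr7:103829551-103829859 in cluster 3, had folds of 6.80 and 4.97 in libraries 1 and 2. Regions at chr7:103833380-103834037, with folds of 5.13 and 5.27, and chr7:103836063-103836352, with folds of 4.57 and 4.52, lay between clusters 3 and 4 with no hemogen or BRG1 peak of any list. At region C the H3K27ac region had folds of 4.55 and 4.78. H3K27ac in KO liver was not analysed here.

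Of the 21 hemogen regions 6 overlapped a WT BRG1 region, where 41.6% of all hemogen regions did. These 6 were 1144 to 4597 bp wide, and their percentiles in the hemogen lists ran from 92.4 to 99.9 in library 1 and from 96.3 to 99.9 in library 2. The 15 without a WT BRG1 region were 325 to 3012 bp wide, with percentiles from 17.7 to 95.3 and from 34.2 to 97.6. The ranges overlap at their ends in library 1 and library 2, and no test was made. Some of these 15 held BRG1 peaks of 1 WT library or of the WT group list. A wider region also has more length in which to overlap a BRG1 region, and the part of width was not tested. The strongest of all by hemogen in library 2 was chr7:103870082-103871721 in cluster 6, over BRG1 region I, with folds of 12.8 and 12.4 and 49 and 71 fragments. The widest, chr7:103858473-103863069, held BRG1 regions D, E, F and G and had folds of 12.8 and 4.77. The region over A and B, chr7:103807812-103811817 in cluster 2, had folds of 11.9 and 10.4. At the far end of cluster 6, chr7:103875818-103878201 held regions J, K and L with folds of 7.17 and 10.3 and 53 and 68 fragments. Region H lay in chr7:103865363-103866506, with folds of 7.03 and 5.00 and 52 and 73 fragments, and region C in chr7:103827689-103829470, with folds of 6.10 and 7.90 and 35 and 52 fragments. The 6 thus cover all 12 WT BRG1 regions. Hemogen regions without a BRG1 region included the weakest by percentile in library 1, chr7:103844559-103845050 in cluster 4, with folds of 3.05 and 4.35, and a wide one, chr7:103823813-103826824 in cluster 3, with folds of 6.12 and 5.63. The wide one held a BRG1 peak of fold 5.94 in WT library 2, at chr7:103825397-103825759, and none in WT library 1.

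By a rule on peak numbers in the 8 library lists (Euclidean distance of log2 of the number plus 1), the tiles most like the window were chr12:32010001-32120000 at a distance of 0.775, chr10:117040001-117150000 at 0.883 and chr18:56870001-56980000 at 0.947. The rule used the KO lists too, so their few KO peaks are no finding. In these tiles 4 of 17, 5 of 11 and 5 of 17 WT BRG1 regions were called in a KO list.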

How the data were processed

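The authors deposited 1 peak list per library and 1 per group, with no header. For every peak the authors deposited its fold or ratio over local background, and the −log10 of its p-value and of its q-value. The lowest −log10 q in a list was between 1.30 and 1.37. The submitters' processing notes name MACS2 2.2.7.1, Picard 2.21.4, SAMtools 1.9 and Bowtie2 2.3.5 without roles. Of the read filters (which matter for near-identical genes such as Hbb-bs and Hbb-bt), controls and pooling of group lists, nothing is stated in the labels. The build was taken as mm10 from contig names in the library lists and from the window's definition.

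Groups and replicate numbers came from sample titles. In the hemogen lists the peak names carry 3 and 4 where the titles have 1 and 2, and 34 in the group list, so which hemogen libraries these lists were called on was not settled; they are given here by title. Peaks on the 19 autosomes and X were kept. Sharing meant 1 bp of overlap, and called meant overlap with a peak of either KO library or the KO group list. Heights and background were solved from fold, read as height plus 1 over background plus 1, and p, read as an upper Poisson tail. They were divided by the caller's scaling factor to give fragments. The factor and the depth were estimated on up to 6000 peaks per list. Heights were solved for all window peaks and all peaks of the WT BRG1 libraries. In every list, heights were whole multiples of 1 factor within 0.01 for at least 98.0% of the peaks used for the factor. Peaks with more than 1 solution were left out. Depth of the immunoprecipitate is the lowest background that 5 or more peaks have in common, over the shortest width and the factor. Depth at calling is the same without division by the factor. This reading is an assumption about the caller.

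Peak numbers were compared by an exact permutation test with libraries as its units. Its p is the share of label assignments that give a difference at least as large, and it does not measure the spread. Overlap and height recovery were tested on simulated data. Alternatives were a stricter q-value, more overlap, group lists, trimmed lists, joined peaks, left-out libraries and a replicate block. All 54 elements were to be counted, and the 3 most alike tiles named. The window, its members and these choices were made with earlier results of these data known. Gene lists, markers, promoters and motifs were not used here, as they need a mouse annotation or genome. Tools were SciPy 1.17.1, pandas 2.3.3, Matplotlib 3.10.9, NumPy 2.4.6 and Python 3.11.15.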

Additional observations from a re-analysis of the deposited data

How the results depend on the processing

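The lower number of BRG1 peaks in KO libraries kept its direction in 8 of 8 alternatives. The difference was -9.5 peaks under a −log10 q minimum of 5, and -2.5 peaks with lists trimmed to equal length. It lay between -22 and -17 when any single library was dropped. The main counts were 1 and 1 in KO and 23 and 18 in WT libraries. Dropping a library or pairing by number therefore could not reverse the direction, and these settings do not test it. The share of WT BRG1 regions overlapping hemogen was 94.9% to 100% in 7 of 7, and the number of elements was 37 to 48 in 3 of 3. The hemogen shares have no genome-wide share under the same settings beside them here. KO calls at WT BRG1 regions made up 0% (0 of 4) at a −log10 q of 5. Where both KO libraries had to have a peak they made up 0%, and the genome-wide share was itself only 12.1%. On group lists it was 5.13% of 39, where 24.6% of all WT group list peaks were called. Dropping any single library gave 0% to 8.70%. Without KO library 1, which carries the call at region F, it was 0% of 12, where 28.9% of all WT BRG1 regions were called in KO library 2. The stricter q-value, the larger overlap, the replicate block and the settings with a WT library dropped have no genome-wide share beside them here. The share overlapping H3K27ac was 0% (0 of 4) at a −log10 q of 5, 51.3% on group lists and 4.35% to 25% when any single library was dropped. These H3K27ac shares have no genome-wide share under the same setting beside them here, so they cannot be read against a background. The cause of these moves was not tested; at a −log10 q of 5 only 4 regions remained. With the replicate block, pairing KO and WT libraries by number, the difference in peaks was -19.5 (exact sign-flip p = 0.5, the smallest it allows) and 2.44% of 41 WT peaks were called. The libraries share only a number. KO lists rest on less depth, and no detection limit was measured.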

Other observations

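BRG1 and hemogen summits did not always coincide. At the 12 WT BRG1 regions the distance between the BRG1 summit and the summit of the strongest overlapping hemogen peak had a median of 629 bp in library 1 and 122.5 bp in library 2, against 225 and 202 bp over all regions that overlapped a hemogen peak. Within 100 bp lay 4 and 6 of the 12, against 30.5% and 32.9% over all. A wide hemogen peak has 1 listed summit, so at regions D to G the same hemogen summit served for 4 regions. In library 1, regions A and B also shared a hemogen summit, and so did J, K and L. In library 2, J and K shared a hemogen summit. Between the WT BRG1 libraries the summits of the 12 regions lay a median of 114.5 bp apart, against 115 bp over all regions.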
